A study of Mus musculus with 10 samples.

Results

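One array of expanded mouse back skin, that of day 7, was set against the 3 other expanded arrays of the same study, those of days 0, 14 and 21. A gene was a member where its day 7 value lay above the highest or below the lowest of those 3 arrays. Of 13653 genes past a filter on low signal, 7584 lay outside that range on day 7 (55.5%), 3262 above it (23.9%) and 4322 below it (31.7%). The account below is of the 494 genes (3.62%) that lay outside by at least 2-fold, 285 above (2.09%) and 209 below (1.53%). The members were chosen on these values, so the distances are descriptions and no test was made on them.

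The study profiled whole back skin of C57BL/6J mice, aged 9 weeks at the start, on 10 arrays. A silicone expander had been placed beneath the back skin of 8 of them. It was enlarged stepwise with PBS (phosphate-buffered saline) for the 4 expanded samples and never filled for the 4 non-expanded samples. Each arm had 1 array at 0, 7, 14 and 21 days after the expander was fully injected, and 2 further arrays held skin of mice without surgery, 1 at rest in the hair cycle (telogen) and 1 in active hair growth (anagen). There was thus 1 array a group and no replicate, the labels do not tell single animals from pools, and the sex of the mice is not given in the sources used here. All mice in the expander groups had the implant, so the non-expanded arrays also carry the surgery. Because the tissue was whole skin, fewer cells of a type and less RNA per cell cannot be told apart.

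Values are deposited signals read as log2, where a difference of 1 is 2-fold, and "distance" is the log2 gap between the day 7 value and the nearest of the other 3 expanded arrays. Array medians over all probe sets lay between 6.27 and 6.45, and the 23 background probe sets had a median of 5.46, called background here. A scanner of 16 bits cannot read beyond a log2 value of 16, which 586 probe sets exceeded on at least 1 array, and the scale may therefore be stretched. Keratinocyte markers were present on every array: Krt14, the keratin of basal cells, lay between 14.22 and 17.51, and Krt10, the keratin of suprabasal cells, between 15.53 and 19.13. Day 7 was not the expanded array with the most genes outside the range of the other 3. The same count at 2-fold gave 131 genes for day 0 (0.959%), 95 for day 14 (0.696%) and 533 for day 21 (3.9%). Day 7 did hold the most genes at least 4-fold above the others, 138 (1.01%), against 4, 2 and 58 for days 0, 14 and 21. Below the range by at least 4-fold there were 12 on day 7 (0.0879%), against 6, 4 and 17 for days 0, 14 and 21, so there day 21 held the most.

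A hair grows only in anagen, when cells of the matrix at the base of the follicle divide and differentiate into the layers of the hair shaft, the inner root sheath and the companion layer. The shaft is built from hair keratins embedded in keratin-associated proteins, while the inner root sheath, which moulds the shaft, is filled with its own keratins and with trichohyalin. Pigment is normally added by melanocytes that become active in the same stage. Injured or inflamed epidermis switches on another set, among them keratin 16, small proline-rich proteins, S100 proteins and protease inhibitors, and immediate early genes are transcribed within minutes of a stimulus.

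The genes farthest above the range encode hair fibre and root sheath proteins, and many of them lie in gene clusters. Stretches of the promoters of 1 leading gene of each main group are printed to show the TATA box (TATAAA, in capitals), which was frequent in the hair and Sprr groups; the Fos promoter has it too, but its group of immediate early genes mostly lacked it in the searched window. Each is the 100 bases before the start of the gene, 5′ to 3′ on the gene's strand, from RefSeq on GRCm38.p6 (mm10). Krtap1-5 (chr11:99581017-99581116, minus strand) encodes a keratin-associated protein, Krt34 (chr11:100041555-100041654, minus strand) a hair shaft keratin and Krt27 (chr11:99351119-99351218, minus strand) an inner root sheath keratin. Sprr2k (chr3:92432482-92432581, plus strand) encodes a small proline-rich protein, and Fos (chr12:85473790-85473889, plus strand) a subunit of the transcription factor AP-1.
Krtap1-5: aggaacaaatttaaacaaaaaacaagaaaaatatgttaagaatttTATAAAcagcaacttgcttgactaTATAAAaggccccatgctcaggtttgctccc
Krt34: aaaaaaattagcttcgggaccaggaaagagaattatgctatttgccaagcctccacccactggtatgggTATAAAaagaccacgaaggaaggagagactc
Krt27: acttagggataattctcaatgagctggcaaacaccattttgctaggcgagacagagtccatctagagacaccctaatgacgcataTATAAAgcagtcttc
Sprr2k: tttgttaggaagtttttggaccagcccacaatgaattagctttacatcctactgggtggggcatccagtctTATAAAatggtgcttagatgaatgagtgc
Fos: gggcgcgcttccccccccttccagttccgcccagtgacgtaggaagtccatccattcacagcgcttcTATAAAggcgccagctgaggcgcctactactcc

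TATAAA was searched on both strands of the 250 bases before the start. It was found in 1146 of the 11001 promoters held by the table for the genes past the filter (10.4%). Among keratin-associated proteins it was found in 32 of 41 (78.0%), among hair shaft keratins in 6 of 8 and among inner root sheath genes in 9 of 14 (64.3%). Sprr genes held it in 8 of 9 (88.9%) and immediate early genes in 1 of 15 (6.67%). The members above the range held it in 100 of 233 (42.9%), and the members below in 24 of 168 (14.3%). A second motif, CTTTGA, the core recognised by LEF and TCF factors of the Wnt pathway, was found in 13.5% of all promoters. Hair shaft keratins held it in 5 of 8 promoters (62.5%), keratin-associated proteins in 29.3% and inner root sheath genes in 3 of 14 (21.4%). Members above held CTTTGA in 20.6% and members below in 15.5%. Genes of a cluster share sequence through duplication, and a match is a description of letters, not of a site in use.

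Keratin-associated proteins led the list. Of 50 such genes on the array 44 passed the filter, and all 44 lay at least 2-fold above the range on day 7, as did 47 of the 50 without the filter. Their mean signal on the expanded arrays was 5.38, 12.29, 5.84 and 5.61 at days 0, 7, 14 and 21, against 7.69 in telogen and 16.48 in anagen. The filter took the mean over all 10 arrays, so a gene seen on day 7 and in anagen alone could pass through those arrays. Krtap1-5, a member of the high-sulfur group, read 5.64, 6.25 and 6.22 on the expanded arrays of days 0, 14 and 21 and 17.14 on that of day 7. Its distance of 10.89 was the largest of all genes, and the day 7 value lay between telogen (9.50) and anagen (19.71). Krtap7-1 read 3.03, 5.53 and 5.82 on the other days, 16.41 on day 7 and 19.01 in anagen, a distance of 10.59. Krtap6-5, of the group rich in glycine and tyrosine, read 6.69, 9.00 and 8.48 on the other days and 18.78 on day 7, with 14.33 in telogen and 19.63 in anagen. In none of these genes did another expanded array come near the day 7 value, and in each the anagen array was higher still.

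Predicted and uncharacterised genes with Gm or Rik symbols, some with distances as large, are left out of the genes named here and below. The other keratin-associated proteins among the 15 largest distances of the genes that remain were Krtap22-2, Krtap6-2, Krtap19-9b, Krtap9-3, Krtap19-1, Krtap8-1, Krtap11-1, Krtap4-16, Krtap1-4, Krtap6-1 and Krtap16-3. Their distances ran from 10.36 for Krtap22-2 down to 7.47 for Krtap16-3. Across all 44 genes the day 7 signal was below anagen and above telogen, and in 19 genes the other 3 expanded arrays all lay below background. A floor near background limits how large those distances could be. Krtap3-2 and Krtap3-3 had identical values on all arrays, and near-identical copies of this family may share probes, so single members are less certain than the group.

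Hair shaft keratins also stood high, with 10 of 11 genes at least 2-fold above the range. Their mean was 9.14 on day 7, between 4.35 and 4.63 on the other expanded days and 14.08 in anagen. Krt86, a type II hair keratin of the cortex, read 4.91, 5.72 and 5.30 on days 0, 14 and 21 and 13.29 on day 7, against 7.58 in telogen and 17.13 in anagen. Krt34 read 3.39, 3.63 and 4.20 on the other days and 11.06 on day 7, with 15.99 in anagen. The type I hair keratins Krt33a and Krt31 had distances of 6.54 and 6.53. For 8 of the 11 genes all 3 other expanded arrays lay below background.

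Inner root sheath genes stood higher on day 7 than the hair shaft keratins, with 13 of 14 at least 2-fold above. Their mean was 12.33 on day 7 against 5.62 to 7.15 on the other expanded days and 16.23 in anagen. Tchh encodes trichohyalin, which hardens the inner root sheath and the medulla. It read 6.40, 8.79 and 10.58 on days 0, 14 and 21 and 17.16 on day 7, against 11.45 in telogen and 18.98 in anagen. Krt27 read 4.77, 6.26 and 7.89 on the other days and 14.75 on day 7. Krt71, its type II partner in the sheath, read 5.92, 7.38 and 9.37 on the other days and 15.51 on day 7. In these 3 genes day 21 was the highest of the other expanded arrays, still more than 6 log2 units under day 7, with distances of 6.58, 6.86 and 6.13. Krt26 and Tchhl1, also of the sheath, had distances of 6.26 and 6.22.

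Companion layer and medulla genes gave 4 of 4 at least 2-fold above: Padi3, an enzyme that modifies trichohyalin, with a distance of 3.28, Krt16 with 2.32, Krt17 with 1.63 and Krt75, the keratin of the companion layer, with 1.06. Padi3 read 7.70 on day 7 and 14.13 in anagen. Padi3 was counted in the inner root sheath list as well. Krt16 and Krt17 also mark wounded epidermis and were counted in the stress and wound list, so only Krt75 was in this list alone. Krt16 read 10.39, 13.84 and 9.13 on days 0, 14 and 21 and 16.16 on day 7, which was above its anagen value of 8.67, unlike the hair keratins.

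**Figure D1:**
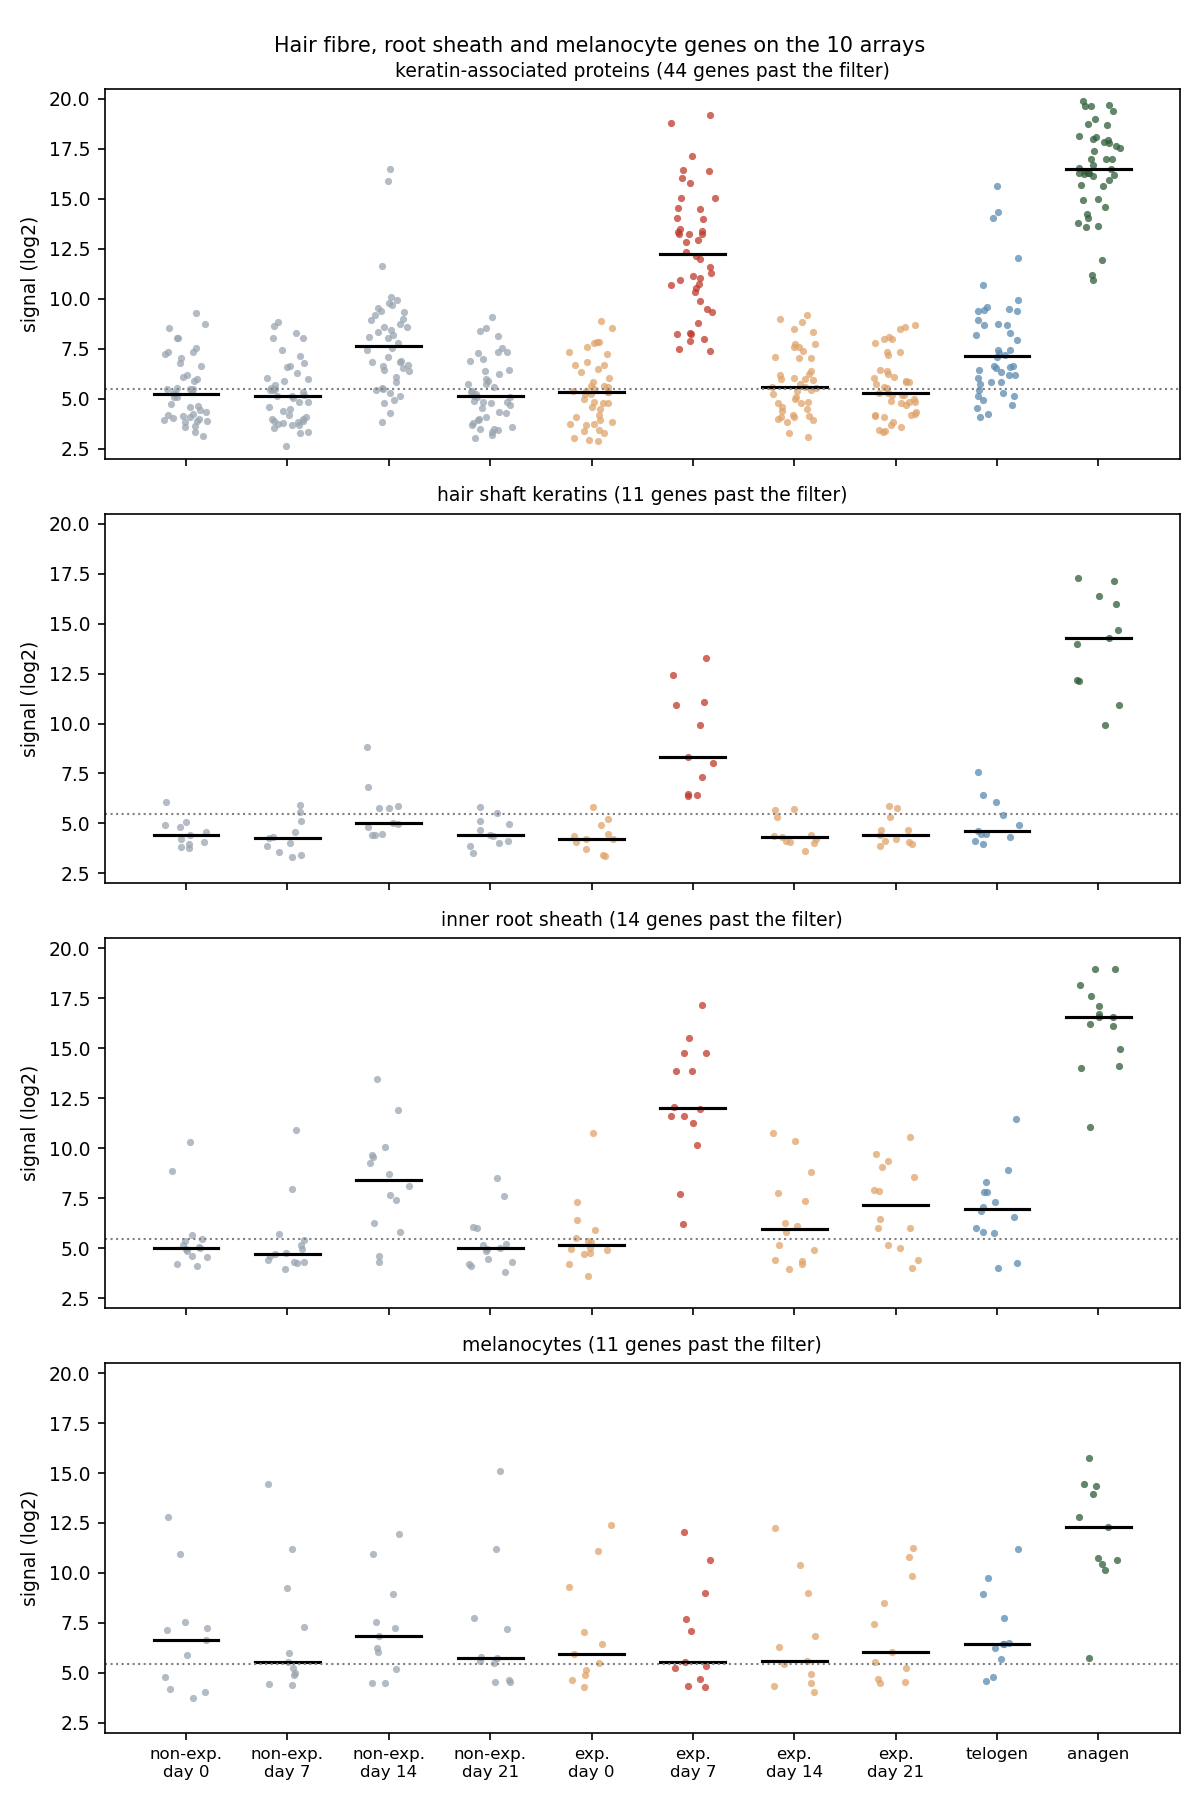
Signal (log2, vertical axis) of keratin-associated protein, hair shaft keratin, inner root sheath and melanocyte genes on the 10 arrays (horizontal axis). Each point is 1 gene, black bars are medians and the dotted line is the background median of 5.46. On the expanded array of day 7 the medians of the first 3 groups are 12.24, 8.31 and 12.03, above all other arrays but anagen, while the melanocyte median is 5.52.

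Regulators of the hair matrix stood apart by less than the proteins of the fibre. Of 11 transcription factors of the matrix, 3 lay at least 2-fold above, against 2.09% of all genes. Foxn1, which directs differentiation of matrix cells, read 5.58, 6.48 and 6.40 on days 0, 14 and 21 and 8.61 on day 7, against 6.08 in telogen and 13.69 in anagen. Dlx3, a homeobox factor of the shaft and inner root sheath, read 8.56 on day 7, a distance of 2.09, with 13.93 in anagen. Msx2, another homeobox factor of the matrix, read 6.31 on day 7, a distance of 1.55, with 11.67 in anagen. Of 18 factors listed, 16 were on the array and 11 passed the filter. Lef1 and Hoxc13 were among those that did not pass. Lef1, the nuclear partner of Wnt signalling, read 4.79 on day 7 against 3.80 to 3.99, and Hoxc13, a regulator of hair keratins, 4.05 against 3.22 to 3.67. Both were below background on day 7, and in anagen they read 9.37 and 8.17.

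Of 20 genes of hair Wnt, Shh and growth signals, none lay at least 2-fold above the range and 1 lay below. The shares of all genes were 2.09% and 1.53%, so in a list of 20 these counts say little. Shh, the signal that drives growth of the matrix, read 6.83 on day 7, inside the range of 6.80 to 7.23, and 9.69 in anagen. Fgf18, a growth factor that the resting follicle makes and that holds it in telogen, was the gene below. It read 10.64, 10.30 and 11.41 on the other expanded days, 8.38 on day 7, 12.32 in telogen and 8.04 in anagen. Day 7 was thus the lowest of the 4 expanded arrays and close to anagen.

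Among 18 follicle stem cell markers, Cdh3 (P-cadherin, of the hair germ) lay above by 1.02, and Cd34, a marker of bulge cells, and Fgf18 lay below, with distances of -1.19 and -1.93. Lgr6, the R-spondin receptor named in the series title, read 5.80, 6.14 and 6.29 on the other expanded days and 5.18 on day 7, which is below background. Lgr5, its relative in the lower follicle, read 10.13, 11.44 and 10.61 on the other days and 9.88 on day 7. Both receptors lay below the range, by less than 2-fold, with distances of -0.61 and -0.24. In the dermal papilla list of 17 genes 1 stood above, against 2.09% of all genes. This was Crabp1, a retinoic acid binding protein that is also a fibroblast marker. It read 6.76, 7.53 and 8.02 on the other days, 11.21 on day 7, 7.54 in telogen and 5.67 in anagen, so it was not an anagen gene on these arrays.

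Pigment cell genes did not go with the hair fibre. Of 11 melanocyte genes none lay 2-fold outside the range, in either direction, against 3.62% of all genes, so the count alone says little. Their mean was 6.90 on day 7 and 11.93 in anagen, and the median of their differences between anagen and telogen was 5.04. Tyr, the rate-limiting enzyme of melanin synthesis, read 4.27, 4.34 and 4.56 on the other expanded days, 4.32 on day 7, 4.60 in telogen and 10.45 in anagen. Dct, another enzyme of the pathway, chosen after its values were seen, read 7.71 on day 7, inside the range, against 15.73 in anagen. Of the 11 genes 2 were higher on day 7 than in telogen, and all 11 were lower than in anagen.

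Cell cycle genes lay higher, all within 2-fold. Of 33 genes 25 were above the range by some distance and 1 was below it, with a median difference of 0.85 from the median of the other 3 arrays, against -0.05 over all genes. Expanded day 7 was the highest of the 8 expander arrays for 11 of the 33. The list mean was 8.73 on that array, 8.47 on expanded day 14 and 8.53 on the non-expanded array of day 0. Mki67, a marker of dividing cells, read 11.59, 12.48 and 11.44 on the other expanded days, 12.88 on day 7, 10.71 in telogen and 15.16 in anagen. Replication-dependent histone genes, grouped after their values were seen, gave 16 of 52 at least 2-fold above, none below, and a median of 11.48 on day 7 against 9.26 to 10.60 on the other expanded arrays. The non-expanded array of day 0 was as high, with a median of 11.50, and expanded day 7 was the highest of the 8 expander arrays for 27 of the 52.

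The place of the members between the stages of the hair cycle was read from the telogen and anagen arrays. These had no part in the distance, but they counted toward the mean used by the filter, so the shares below are not independent of them. Of the 285 members above, 204 (71.6%) had anagen at least 2-fold over telogen, against 3212 of all 13653 genes (23.5%), and without the filter the share of the members was 68.7%. In 57 of the members anagen and telogen were within 2-fold, and in 24 anagen was at least 2-fold lower. Of the 209 members below, 107 (51.2%) had anagen at least 2-fold under telogen, against 2788 of all genes (20.4%), and 31 had it at least 2-fold over. Without the expanded array of day 0 in the range, 53.9% of the members above had the higher anagen value and 41.9% of those below the lower one. Anagen genes of larger difference were more often members. Of the 571 genes at least 3 log2 units higher in anagen, 156 were above the range on day 7 (27.3%), of the 176 at least 5 units higher 120 (68.2%), and of the 97 at least 7 units higher 94 (96.9%). In that last group the median difference of day 7 from the median of the other expanded arrays was 5.80. The day 7 array still lay short of anagen: among the 204 members the median gap from day 7 up to anagen was 3.06, and 171 of them were lower than in anagen. Across all genes past the filter, which are not replicates, Pearson's r with anagen was 0.880 for day 7 and 0.816, 0.838 and 0.838 for days 0, 14 and 21. Its r with telogen was 0.888, against 0.915, 0.903 and 0.937 for the others.

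**Figure D2:**
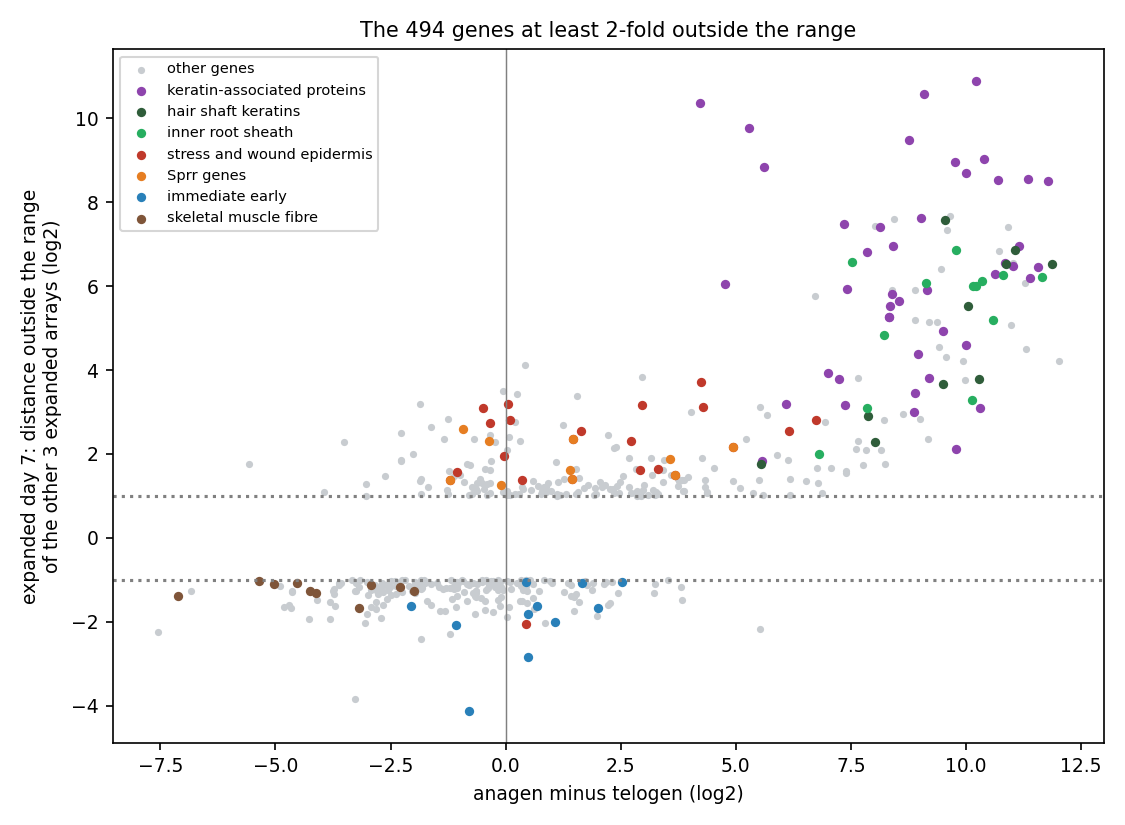
Distance of the expanded day 7 array outside the range of the other 3 expanded arrays (log2, vertical axis) against the difference between the anagen and telogen arrays (log2, horizontal axis), 1 point for each of the 494 genes at least 2-fold outside. Hair fibre and root sheath genes lie at the upper right, stress and wound and Sprr genes spread over both signs of the horizontal axis, and skeletal muscle genes lie at the lower left. Dotted lines mark the 2-fold limits.

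Many members above were neighbours on the chromosome, in 5 stretches whose bounds were set after the values were seen. The type I keratin and keratin-associated protein cluster on chromosome 11 (99315516 to 100261029, mm10) held 51 genes past the filter, of which 43 were members above, 10 of them predicted genes. The keratin-associated protein cluster on chromosome 16 (88610709 to 89571183) held 24, of which 23 were members. The type II keratin cluster on chromosome 15 (101473478 to 101802360) gave 9 of 11. The stefin cluster on chromosome 16 (36156811 to 36455392) gave 9 of 9, and the epidermal differentiation complex on chromosome 3 (90560356 to 93471980) gave 20 of 49 above and 1 below. Together these stretches held 104 of the 285 members above. Of the 285, 112 were in 1 or more of the 38 gene lists, and 173 were in none. Of those in none, chosen after their values were seen, Crnn (cornulin, of the epidermal differentiation complex) lay 6.08 log2 units above the range and S100a7a, an S100 protein, 4.56 units.

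A second group stood high on day 7, the proteins of stressed and wounded epidermis. The median of anagen minus telogen was 0.53 for that list and 1.41 for Sprr genes, against 8.93 for keratin-associated proteins. Anagen was at least 2-fold over telogen for 14 of the 29 stress and wound genes and 6 of the 10 Sprr genes, and at least 2-fold under for 5 of the 29 and 1 of the 10. All 10 Sprr genes past the filter, of 13 on the array, lay at least 2-fold above. Their mean on the expanded arrays was 7.44, 11.90, 9.89 and 6.99 at days 0, 7, 14 and 21, against 6.30 in telogen and 7.69 in anagen. Sprr genes encode small proline-rich proteins that are crosslinked into the cornified envelope. Sprr2e read 6.11, 10.83 and 6.58 on days 0, 14 and 21 and 13.19 on day 7. Sprr2b read 7.33, 10.23 and 7.99 on the other days and 12.54 on day 7. Sprr1a read 10.23, 9.87 and 9.51 on the other days, 12.41 on day 7 and 13.84 in anagen. In Sprr2e and Sprr2b day 14 was the second highest expanded array and anagen was low (6.66 and 5.79), whereas Sprr1a was higher in anagen than on day 7. Sprr2k, the gene of this group with the largest distance (2.59), read 7.47 on day 7 with the other expanded arrays between 4.23 and 4.88, all below background.

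The Sprr promoters also share a short element, printed here because it was found in 8 of the 9 that the RefSeq table holds (88.9%). The element is the AP-1 motif TGANTCA, where N is any base, searched on both strands of the same 250 bases, and it occurred in 6.64% of all promoters. In these windows of 31 bases, 5′ to 3′ on the strand of each gene, capitals mark the motif. Sprr2k lies at chr3:92432388-92432418, Sprr2e at chr3:92351938-92351968 and Sprr2b at chr3:92316498-92316528 on the plus strand, and Sprr1a at chr3:92485979-92486009 on the minus strand.
Sprr2k: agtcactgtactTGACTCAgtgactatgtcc
Sprr2e: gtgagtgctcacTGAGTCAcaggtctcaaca
Sprr2b: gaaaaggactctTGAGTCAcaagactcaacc
Sprr1a: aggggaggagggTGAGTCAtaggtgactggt
Members above held the AP-1 motif in 40 of 233 promoters (17.2%) and members below in 20 of 168 (11.9%). Keratin-associated proteins held it in 8 of 41 (19.5%), inner root sheath genes in 2 of 14 (14.3%) and hair shaft keratins in 0 of 8. It was found in 0 of the 15 promoters of immediate early genes held by the table, and CTTTGA in 0 of the 9 Sprr promoters. No match of one motif overlapped a match of another in these promoters.

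Of 29 genes of stress and wound epidermis 21 lay at least 2-fold above the range and 1 below. The list shares 5 genes with the Sprr list, 2 with the companion layer list (Krt16 and Krt17), 2 with the neutrophil list (S100a8 and S100a9) and 1, Ivl, with the suprabasal list. Their mean was 8.30, 12.34, 10.56 and 8.20 at days 0, 7, 14 and 21 of expansion, 6.92 in telogen and 8.27 in anagen. Serpinb3a, an inhibitor of proteases, read 7.02, 11.69 and 8.22 on days 0, 14 and 21 and 14.88 on day 7, against 5.70 in telogen and 5.76 in anagen. Klk6, a secreted serine protease, read 11.50, 12.42 and 10.47 on the other days and 15.60 on day 7. Klk13, of the same family, had a distance of 3.13. Ereg, the growth factor epiregulin, was the gene below: it read 11.81, 12.25 and 13.09 on the other days and 9.75 on day 7. Day 14 was the highest of the other expanded arrays for 22 of the 29 genes.

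Stefins, inhibitors of cysteine proteases encoded together on chromosome 16 and grouped after their values were seen, were also high on day 7. Stfa2 read 7.32, 11.52 and 6.63 on days 0, 14 and 21 and 15.24 on day 7, a distance of 3.72. Stfa3 read 7.79, 12.44 and 9.00 on the other days and 15.54 on day 7. Cstdc5, a stefin-like gene, read 8.33, 12.45 and 9.65 on the other days and 15.87 on day 7. Stfa1 and Cstdc6 had distances of 2.82 and 2.64. These copies are similar in sequence, so probes may not separate them.

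Among genes other than predicted and uncharacterised ones, the others farthest above the range without a 2-fold difference of anagen over telogen were Tmprss11g, a membrane serine protease (distance 4.11), Gsdmc2, a gasdermin (2.83), Rbp2, a retinol binding protein (2.76), and Lcn2, the iron-scavenging lipocalin of inflamed epithelium and neutrophils (2.74). Lcn2 read 9.80, 12.12 and 9.73 on days 0, 14 and 21 and 14.86 on day 7. In the 81 members above that had no such difference, the median was 10.31 on day 7 and between 7.30 and 7.94 on the other expanded arrays, 6.62 in telogen and 5.91 in anagen.

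Genes of the normal epidermis were read beside the 3.62% of all genes that lay at least 2-fold outside the range. In lists of 12 and 17 genes a count of none is near that share. Of 12 genes of the basal epidermis none lay 2-fold outside the range, in either direction, and Krt14 had a distance of 0.37. Of 26 suprabasal and cornified envelope genes, 2 lay above, Ivl (involucrin) by 1.61 and Rptn (repetin) by 1.04, and 1 below, Flg2. The shares of all genes were 2.09% above and 1.53% below. Flg2 (filaggrin 2) read 16.25, 16.02 and 15.78 on the other expanded days, 13.97 on day 7, 16.89 in telogen and 13.88 in anagen, so that the day 7 value was near that of anagen. None of the 17 Lce genes, which encode late envelope proteins, lay 2-fold outside, and Krt10 lay inside the range.

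Neutrophil markers were higher on day 7, with 7 of 16 at least 2-fold above the range and 11 without the expanded array of day 0. S100a8 and S100a9, which stressed keratinocytes make as well as neutrophils, had distances of 2.56 and 1.96. S100a8 read 8.34, 13.95 and 8.18 on days 0, 14 and 21 and 16.51 on day 7. Cxcr2, a chemokine receptor of neutrophils, read 6.48, 7.16 and 5.64 on the other days and 9.51 on day 7. Cxcl5, a ligand of that receptor, read 5.60, 4.69 and 4.04 on the other days and 7.88 on day 7. The list median was 8.02 on day 7 and lay between 5.43 and 7.03 on the other expanded days, but it was 8.19 and 8.54 on the non-expanded arrays of days 0 and 7. Of the other immune lists, macrophages gave 2 of 23 above (Arg1, arginase 1, by 1.41 and Chil3, a chitinase-like protein, by 1.22), T cells and innate lymphocytes 1 of 8 (Icos, a costimulatory receptor, by 1.47) and the interferon response 1 of 14 (Ifit3, by 1.15). None of these 3 lists had a gene at least 2-fold below. Over all genes 2.09% lay at least 2-fold above, so 1 gene in a list of 8 or 14 says little about the list. The part of immune cells in the stress and wound values was not tested.

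**Figure D3:**
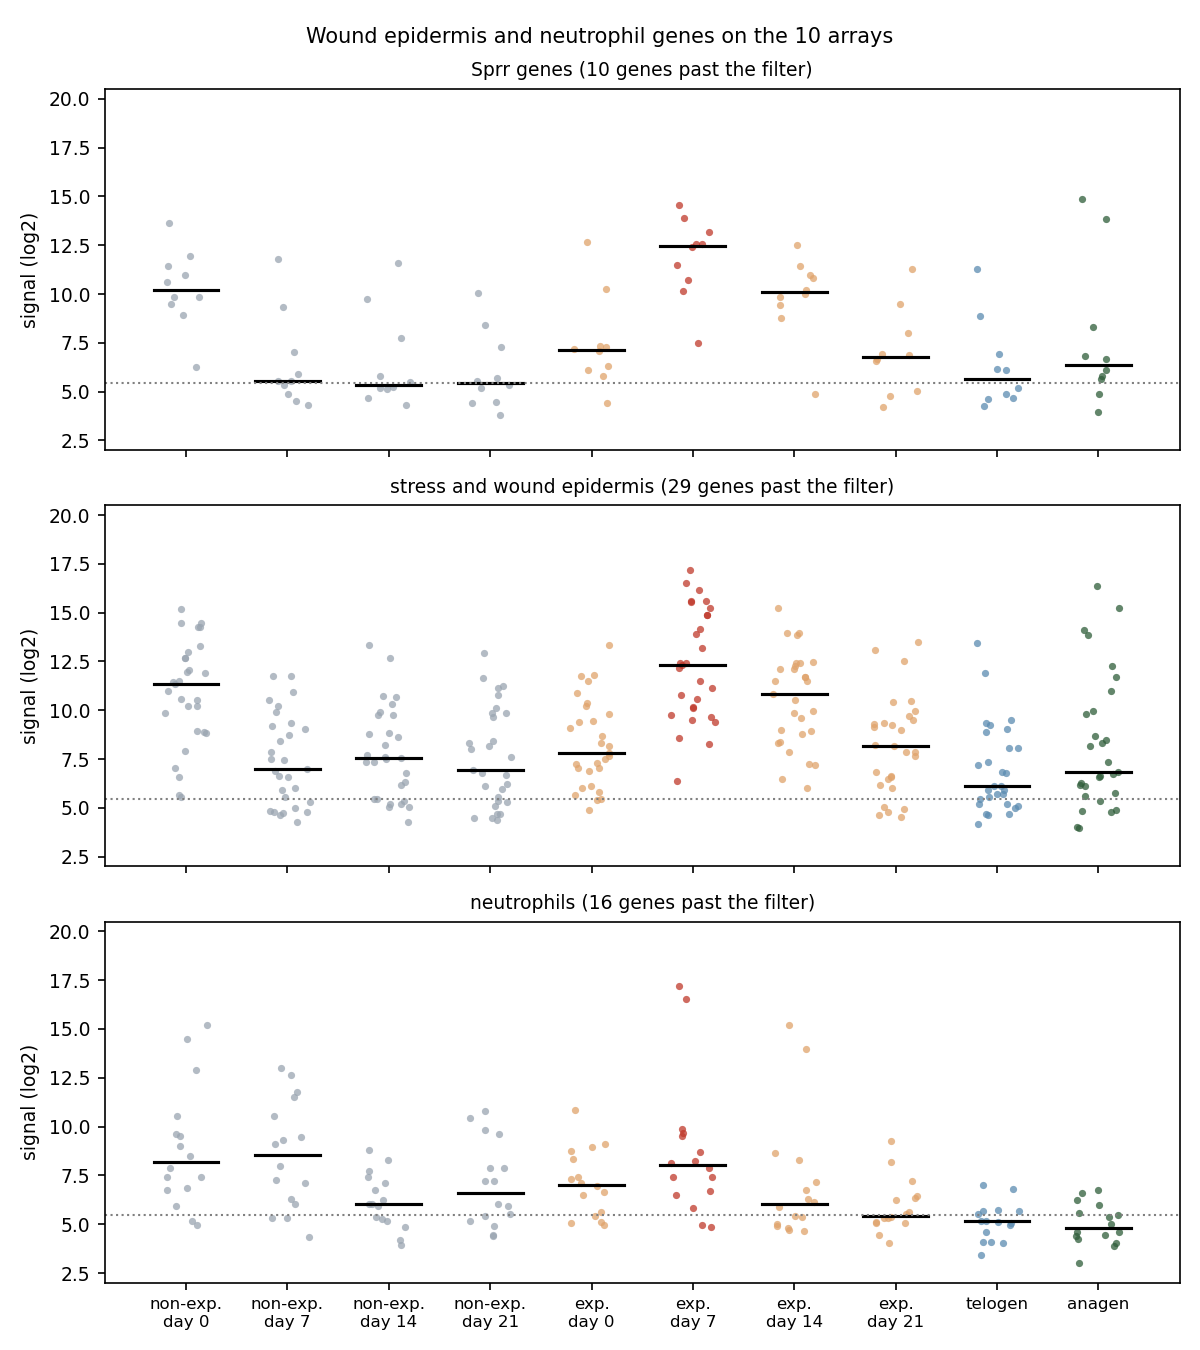
Signal (log2, vertical axis) of Sprr, stress and wound epidermis, and neutrophil genes on the 10 arrays (horizontal axis). Each point is 1 gene, black bars are medians and the dotted line is the background median of 5.46. The Sprr medians on the expanded arrays are 7.12, 12.48, 10.10 and 6.77 at days 0, 7, 14 and 21, and the non-expanded array of day 0 stands at 10.23.

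The members below were fewer at large distances, and immediate early genes led them. Of 20 such genes 11 lay at least 2-fold below the range and none above. Their mean was 12.20, 10.64, 11.87 and 12.85 at days 0, 7, 14 and 21. Fos read between 14.72 and 16.14 on the expanded arrays of days 0, 14 and 21 and 10.58 on day 7, the largest distance below of all genes (-4.13). Dusp1, a phosphatase that switches off MAP kinases, read 17.10, 17.50 and 17.80 on the other days and 14.27 on day 7. Nr4a1, a nuclear receptor induced by stress, read 10.45, 9.41 and 11.52 on the other days and 7.33 on day 7. Jun, a partner of Fos, read 14.51, 14.19 and 15.33 on the other days and 12.37 on day 7, and Egr1, a zinc finger factor, read 12.77 on day 7 and at least 14.78 on the others. These 5 genes lay below the other expanded arrays by the rule that chose them. Yet Fos, Dusp1, Nr4a1, Egr1 and Jun were all higher on day 7 than in telogen (7.67, 10.67, 6.95, 11.17 and 11.19).

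Other genes far below the range belong to connective tissue and signalling. Sfrp4, a secreted Wnt inhibitor, read 10.70, 10.44 and 10.59 on days 0, 14 and 21 and 6.61 on day 7, against 11.50 in telogen and 8.22 in anagen. Its distance of -3.83 was second to that of Fos. C7, a component of complement, read 15.60, 15.46 and 17.74 on the other days, 13.21 on day 7, 15.78 in telogen and 8.22 in anagen. Chrdl1, an antagonist of BMP, read 9.55, 9.29 and 10.48 on the other days and 6.99 on day 7. Igfbp3, an IGF binding protein, had a distance of -1.94. For Sfrp4, C7 and Igfbp3 anagen was lower than telogen by more than 2-fold. Trp53i11, in contrast, read 12.55 on day 7 against 14.73 to 15.12 on the other expanded days, 8.84 in telogen and 14.38 in anagen. The other genes among the 15 farthest below were Gabra3, a GABA receptor subunit (-2.42), Cdh19, a cadherin of Schwann cells (-2.03), Hspb7, a small heat shock protein of muscle (-2.02), and Abcc9, a potassium channel regulator (-1.90). Apold1, of endothelium, Cygb (cytoglobin) and Car3, the carbonic anhydrase of fat and muscle, had distances of -1.88, -1.85 and -1.82.

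Skeletal muscle fibre genes stood low on day 7 and nearly as low on day 14. Of 38 genes 10 lay at least 2-fold below the range and none above, and 26 lay below without the expanded array of day 14. Their mean was 12.96, 11.43, 11.85 and 14.51 at days 0, 7, 14 and 21, against 14.00 in telogen and 10.89 in anagen. Ckm, the creatine kinase of muscle, read 14.79, 11.93 and 14.26 on days 0, 14 and 21 and 10.63 on day 7. Mb (myoglobin) read 14.25, 14.09 and 17.31 on the other days and 12.71 on day 7. Acta1, skeletal muscle actin, read 18.64, 18.03 and 18.66 on the other days and 16.87 on day 7. Cacna1s and Ryr1, channels that couple excitation to contraction, had distances of -1.68 and -1.27. In the muscle regeneration list of 13 genes, Myl4 and Tnnt2, a myosin light chain and a troponin of embryonic muscle and heart, lay above by 2.51 and 1.16, while Mstn (myostatin) lay below by a distance of -1.16 and read 4.25, below background.

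In the dermis, 2 of 25 genes of fibrillar matrix lay below the range, Eln (elastin) with a distance of -1.42 and Col1a1 with -1.16, and 1 lay above. For this and the lists that follow, the shares of all genes were 1.53% below and 2.09% above. Col1a1, the main collagen chain of skin, read 18.14, 18.26 and 18.40 on days 0, 14 and 21 and 16.98 on day 7. The gene above was Tnc, tenascin C, a matrix protein of wounds, which read 11.35, 10.89 and 9.33 on the other days and 14.35 on day 7. Of 15 fibroblast markers 4 lay below, among them the mesenchymal factor Prrx1 (-1.33), Clec3b (-1.29) and Cd34 (-1.19), and 1 above, Crabp1. Of 22 targets of YAP and TAZ, factors that respond to tension, 2 lay below, Ccn1 with -1.48 and Tgfb2 with -1.19, and none above. Of 15 circadian clock genes 4 lay below, Nr1d1 (-1.33), Ciart (-1.22), Cry2 (-1.08) and Per1 (-1.05), while Dbp, a clock output gene, had a distance of -0.28. The labels give no hour of sampling, so for clock genes a different hour cannot be told apart from a difference of day 7. Synpo2 and Des of smooth and other muscle were also below (-1.23 and -1.13 in a list of 11). So were Timp3, an inhibitor of matrix proteases (-1.03 in a list of 16), and Cldn5, of endothelial junctions (-1.06 in a list of 17). Adipoq, the adipocyte hormone adiponectin, had a distance of -0.42.

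**Figure D4:**
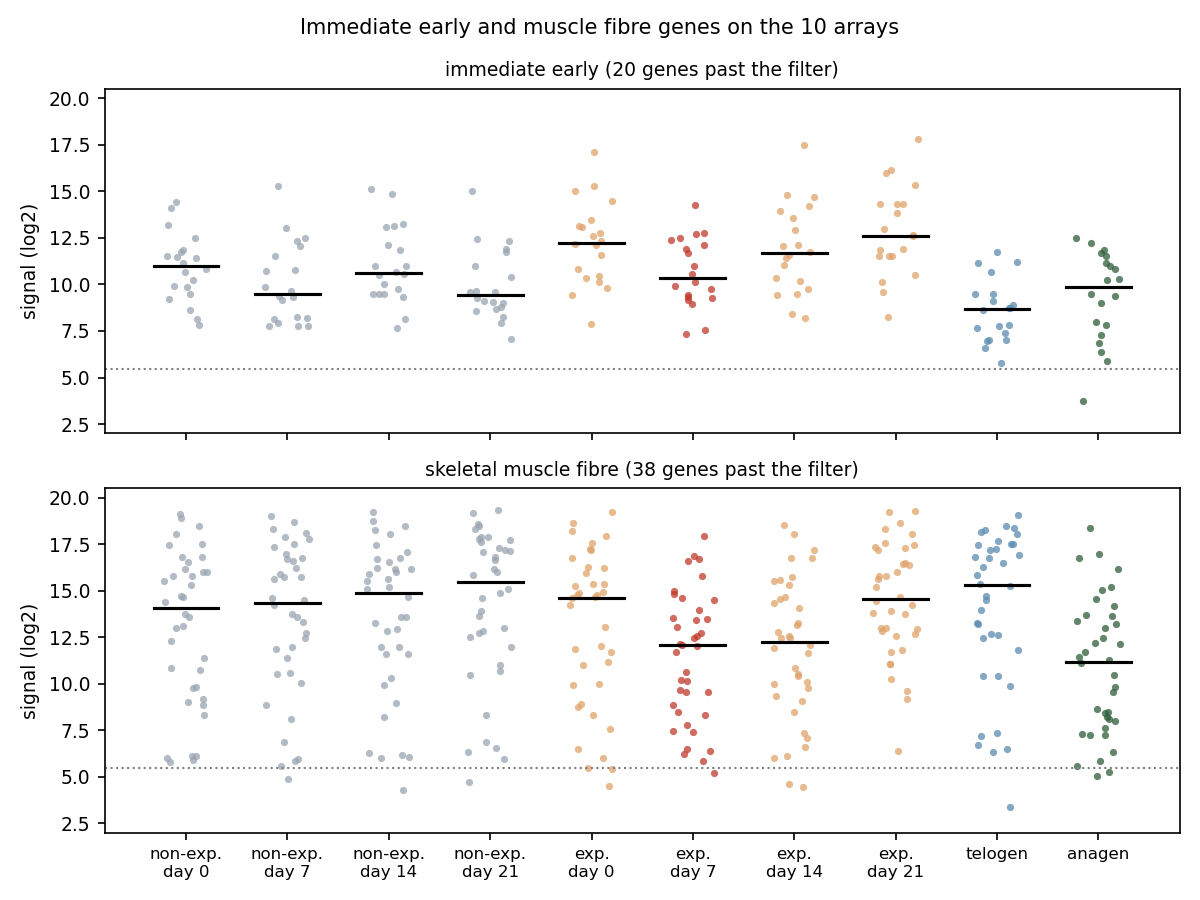
Signal (log2, vertical axis) of immediate early and skeletal muscle fibre genes on the 10 arrays (horizontal axis). Each point is 1 gene, black bars are medians and the dotted line is the background median of 5.46. The immediate early median is 10.36 on the expanded array of day 7 and 12.25, 11.67 and 12.62 at days 0, 14 and 21, while the muscle median of 12.06 on day 7 lies close to the 12.25 of day 14.

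The 494 members were a matter of a fixed limit. Just inside it lay Cyp7b1 (10.63 on day 7 against at most 9.63 on the other expanded arrays) and Cep55 (8.44 against at most 7.43) above, and Sspn (7.84 against at least 8.85) and Aldh1a1 (11.04 against at least 12.04) below. Just outside lay Piwil2 (6.94 against at most 5.94) and H4c3 (11.79 against at most 10.79) above, and Uprt (13.31 against at least 14.31) and Egfl6 (7.58 against at least 8.58) below. Among the members above, the other 3 expanded arrays were all below background for 66. Among the members below, day 7 was below background for 21.

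Skin over an unfilled expander on day 7 was examined in the same way. The distance was computed for the non-expanded array of day 7 against the non-expanded arrays of days 0, 14 and 21, which entered the choice of members through the mean used by the filter alone. Over all genes 347 (2.54%) lay at least 2-fold above and 130 (0.952%) below, or 262 and 209 with each array centred on its median. Of the 285 members above, 7 lay at least 2-fold above there (2.46%), near the share of all genes, and 3 lay at least 2-fold below. By any distance 30 of the 285 lay above, 91 below and 164 inside the range. Of all 13653 genes 3931 lay above and 3321 below by any distance. Without the non-expanded array of day 0 the 7 members became 13 and the 347 of all genes became 434. Without that of day 21 they became 12 and 1059. Of the 209 members below, 12 lay at least 2-fold below there (5.74%) and 16 above (7.66%).

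Keratin-associated proteins averaged 5.29 on the non-expanded array of day 7, and none of the 44 lay 2-fold above the range of its arm. Within the non-expanded arm the hair genes were highest on day 14, where the mean of keratin-associated proteins was 7.85, near that of telogen, and where 43 of the 44 had their highest non-expanded value. Krtap22-2 read 16.49 there, 15.66 in telogen and 19.19 on the expanded array of day 7. Tchh read 5.43, 4.97, 13.48 and 6.06 on the non-expanded arrays of days 0, 7, 14 and 21. The stress and wound genes were highest on day 0 in the non-expanded arm, with a mean of 10.91 against 7.44 to 7.83 on its later days, and 26 of the 29 had their highest non-expanded value on that day. Serpinb3a read 11.33 there and 6.01 on the non-expanded array of day 7.

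Set directly against the unfilled expander of the same day, a difference that shares its expanded array with the choice of members, expanded skin was at least 2-fold higher for 249 of the 285 members above (87.4%), against 8.45% of all genes, and at least 2-fold lower for 134 of the 209 members below (64.1%), against 9.43% of all genes. By the rule, day 7 was already the highest of the 4 expanded arrays for members above and the lowest for members below. Expanded day 7 was the highest of the 8 expander arrays for 259 of the members above (90.9%), against 1485 of all 13653 genes. It was the lowest of the 8 for 129 of those below (61.7%), against 1842 of all genes. Of the 20 immediate early genes 3 were lowest there: their mean of 10.64 on expanded day 7 stood beside 10.07 and 9.97 on the non-expanded arrays of days 7 and 21.

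**Figure D5:**
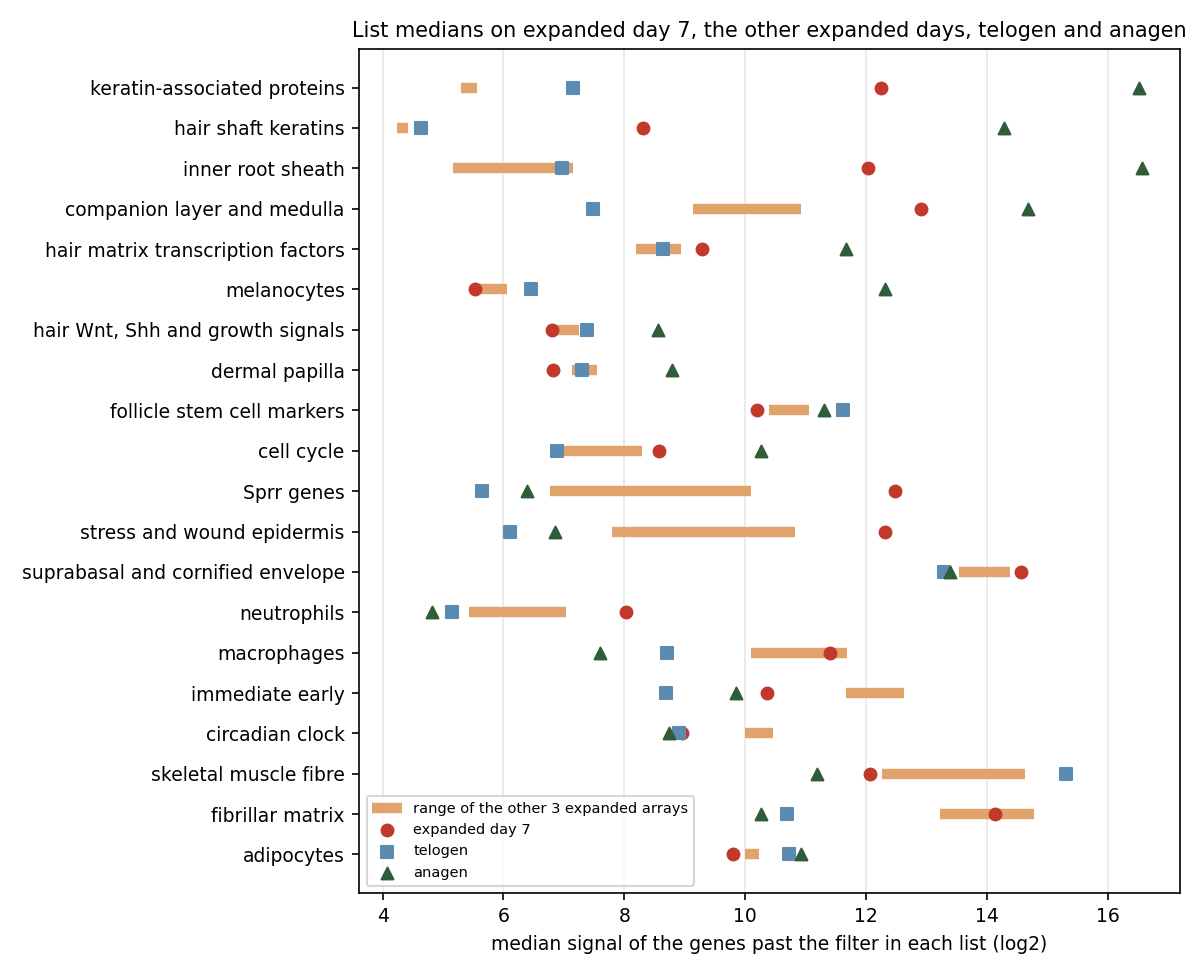
Median signal (log2, horizontal axis) of the genes past the filter in 20 gene lists (vertical axis) on the expanded array of day 7 (circles), telogen (squares) and anagen (triangles), with the range of the other 3 expanded arrays as bars. For keratin-associated proteins the day 7 median of 12.24 lies between telogen (7.14) and anagen (16.52), for Sprr genes the day 7 median of 12.48 lies beyond both (5.65 and 6.38), and for melanocytes it lies at 5.52, beside telogen (6.46) and not anagen (12.31).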

How the data were processed

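Total RNA of whole skin was labelled by the Affymetrix WT PLUS method, per the labels' protocols. The authors deposited processed values of 28846 probe sets for the 10 arrays, read here as log2 signals from their range (1.87 to 19.88). The log base, background correction, summarisation and normalization are not given in the sources used here. The submitters' processing notes name mm10.

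A symbol was given for 19572 probe sets, all found in the RefSeq table of GRCm38.p6 (mm10). The other 9243, and 31 controls, were left out. For the 55 of 19505 genes with several probe sets the one with the highest mean was used, and the 5852 genes with a mean under the 30th percentile (4.86) were removed. Distances, counts and medians were computed in Python 3.11.15 with pandas 2.3.3 and numpy 2.4.6, and the code was tested on simulated data. No p-value was computed, since 1 array was set against 3 and the members were chosen on its values. Precision is set by how few arrays there are.

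The members and the 38 gene lists were chosen with earlier results of these data known. Genes are named by rule: the 15 largest distances on each side, up to 4 genes of a list at least 2-fold outside, the 10 largest on each side without the anagen difference, 21 genes given whatever their values, and those next to the threshold. Predicted genes, small RNA genes and receptor families were not named. Promoters came from the RefSeq table of GRCm38.p6. The alternatives tried were quantile normalization, centring on the median, no filter, a 4-fold limit, the median of the other arrays as reference, leaving out signals above 16, the mean of probe sets, and leaving out each reference array.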

Additional observations from a re-analysis of the deposited data

Results flagged for a closer look

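For 6 gene lists the mean of the list lay outside the range of the other days on opposite sides in the 2 arms on day 7, expanded skin one way and skin over an unfilled expander the other. With 1 array a group these differences were not tested. The mean of hair shaft keratins lay 4.51 log2 units above the other expanded days and had a distance of -0.16 in the non-expanded arm. That of stress and wound epidermis genes lay 1.78 above in the expanded arm and -0.17 from the range in the non-expanded arm. T cells and innate lymphocytes lay 0.28 above and had -0.19 in the non-expanded arm. Fibroblast markers lay at -0.27 in the expanded arm and 0.61 above in the non-expanded arm. YAP and TAZ targets lay at -0.47 and 0.31, and endothelial genes at -0.15 and 0.2. Apart from the first pair of lists, these distances were under 1 log2 unit.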

How the results depend on the processing

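No paired analysis was possible because each group held 1 array and no test was made. Of the 50 recomputed values that answer a comparison, 35 were near the value reported and 15 moved. The limit for near was wide. It took in the 209 below that became 293 without expanded day 21. It also took in, for non-expanded day 7, the 347 above that became 262 with arrays centred and the 130 below that became 188 without day 14. They are counts or shares without a sign, so they cannot show a change of direction. The count above the range of 285 became 138 at 4-fold, 663 with the median of the other expanded arrays as reference, 432 without the expanded array of day 0 and 473 without that of day 14. The count below of 209 became 12 and 674 in the same settings, 384 without day 0 and 415 without day 14. A range of 2 arrays is narrower than one of 3. The share of the members above with anagen at least 2-fold over telogen was 53.9% without day 0, and that of the members below with anagen under telogen was 41.9% without day 0 and 59.0% without day 14. On the non-expanded array of day 7, the 347 genes above became 1059 without the non-expanded array of day 21, and the 130 below became 209 with arrays centred, 221 without day 0 and 763 without day 21. Quantile normalization or centring moved the median difference of all genes on day 7, -0.05, to between -0.05 and -0.01.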

Other observations

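Of the 9243 probe sets without a symbol, 6389 passed the same filter on signal. On the expanded array of day 7, 126 of them (1.97%) lay at least 2-fold above the range of the other 3 expanded arrays and 228 (3.57%) at least 2-fold below. Among the 126, 61 had anagen at least 2-fold over telogen.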
